A study of Mus musculus with 6 samples.

Results

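Haem breakdown, ferritin and iron transport were followed through 10 genes: Hmox1, Blvra, Blvrb, Slc48a1, Abcb6, Fech, Fth1, Ftl1, Slc40a1 and Tfrc. Every probe set whose array annotation carries one of these symbols was taken, shared ones included, which gave 23 of the 45101 probe sets on the array and 10 of the 19324 genes it names. Of the 23, 20 entered the test and 3 are array control probe sets for Tfrc. Each array holds the RNA of 1 mouse, extracted from all of the back skin 2.5 days after birth. All were female littermates of mixed FVB/N and C57BL/6 background. In 3 mice, labelled K5cre-caNrf2 (tg/tg; the genotype cell reads tg/g), Cre recombinase under the keratin 5 promoter switched on an active form of Nrf2. In the other 3, labelled K5cre-wt (tg/wt) and here called controls, the same Cre was present without the active transgene. Keratin 5 marks basal keratinocytes, whereas the RNA came from all cells of the skin, so a change per keratinocyte may be diluted in these values. For the same reason, fewer cells of a type and less RNA per cell cannot be told apart.

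Haem oxygenase, coded by Hmox1, opens the haem ring and releases iron, carbon monoxide and biliverdin, which biliverdin reductases turn into bilirubin. Freed iron is stored inside the ferritin shell, built from heavy chains that oxidise iron and light chains that help form its mineral core, or leaves the cell through ferroportin. Nrf2 binds antioxidant response elements in the DNA, where the haem-sensing repressor Bach1 competes with it, and Hmox1 and both ferritin chains are textbook targets. In many cell types, ferritin, ferroportin and transferrin receptor are also controlled by iron after transcription, through proteins that bind their mRNA.

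Levels are given as intensities per probe set, not on a log scale, and log2 fold changes are caNrf2 over control with their standard error (SE) from limma. A probe set was called at an adjusted p under 0.05 (Benjamini-Hochberg over 45037 probe sets). Of the 20 tested probe sets of the 10 genes, 10 were called higher, 0 lower and 10 were not called. Of all probe sets tested, 1.04% were called higher and 0.633% lower. All 20 had a positive log2 fold change, with a median of 0.34, against a median of -0.00 over all probe sets. In 14 of the 20, every caNrf2 array lay above every control array, which held for 11.4% of all probe sets, and in 6 the groups overlapped. Each of 7 genes had at least 1 called probe set, and Blvra, Slc40a1 and Tfrc had none. The 10 genes were chosen with earlier results of these data known, so these shares describe them and are not an independent test.

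**Figure D1:**
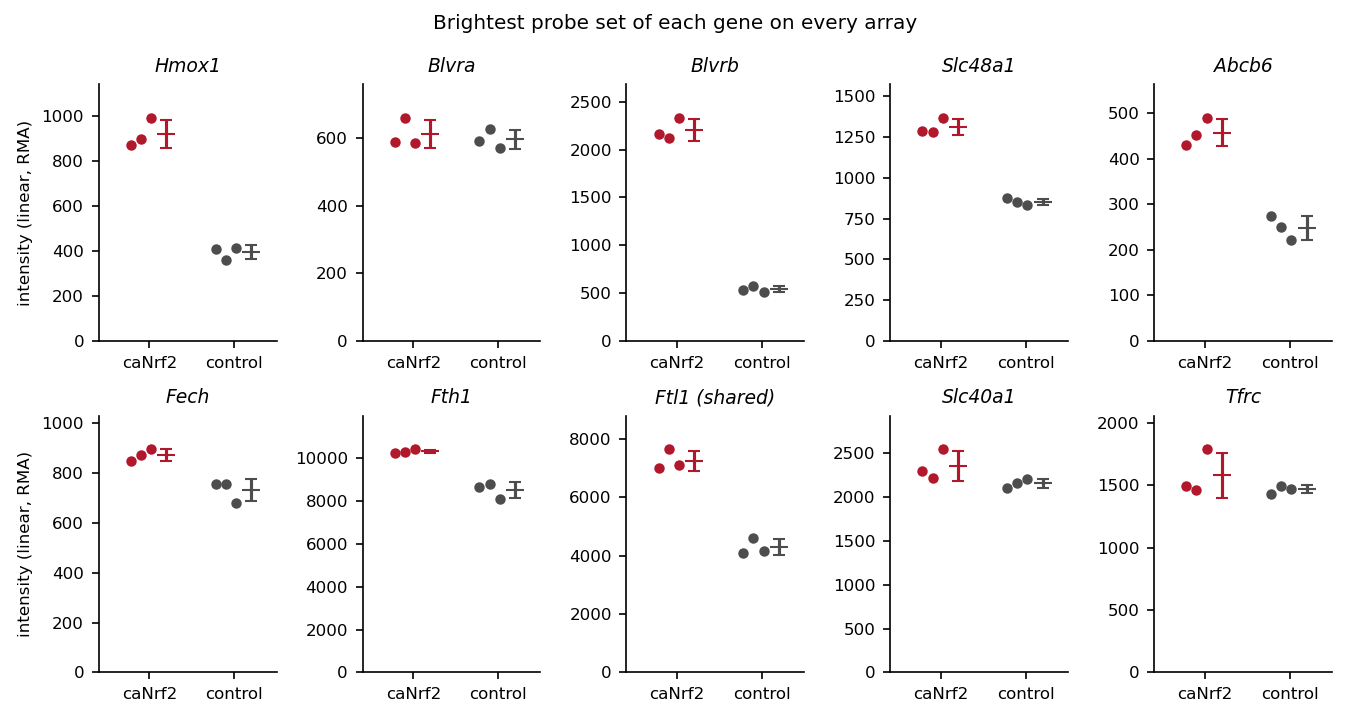
Intensity (linear scale) of the brightest probe set of each of the 10 genes on every array, with caNrf2 arrays left and control arrays right in each panel and mean ± SD beside the points (n = 3). The groups are separate for Hmox1, Blvrb, Slc48a1, Abcb6, Fech, Fth1, Ftl1 and Slc40a1 and overlap for Blvra and Tfrc.

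Skin with active Nrf2 held about 2.3 times the Hmox1 signal of control skin. Hmox1 had intensities of 871, 897 and 990 in caNrf2 skin, against 408, 359 and 414 in control skin. The lowest caNrf2 array was thus far above the highest control array, and caNrf2 replicate 3 was the highest of all 6. The means were 919 ± 62.8 in caNrf2 and 394 ± 30.1 in control skin (SD, n = 3), which limma put at 1.22 ± 0.08 on the log2 scale (adjusted p = 2.9e-05). Hmox2, the haem oxygenase that many tissues make without induction, had 1009, 1111 and 966 in caNrf2 skin, against 1052, 1085 and 1056 in control skin. These ranges overlapped, and the Hmox2 log2 fold change was -0.05 ± 0.07 (limma, adjusted p = 0.746). The response of Hmox1 exceeded that of Hmox2 by 1.27 ± 0.13 on the log2 scale (SE, n = 3 each). Within each array, the Hmox1 minus Hmox2 difference did not overlap between the groups, but the exact two-sided permutation p was 0.1, the smallest that 3 against 3 arrays allow (0.133 adjusted over the 4 pairs compared).

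Of the 4 partner pairs, the biliverdin reductases differed most in their response. Blvrb, which also reduces flavins with NADPH, had 2162, 2122 and 2331 in caNrf2 skin, against 533, 577 and 515 in control skin. No other tested probe set of the 10 genes had so large a fold change, 4.07-fold, and 28 of all 45037 probe sets had a larger one. The means were 2205 ± 111 in caNrf2 and 542 ± 31.8 in control skin, which limma put at 2.03 ± 0.07 on the log2 scale (SD and SE over n = 3; adjusted p = 2.9e-07). Blvra, which makes the bilirubin isomer of adult bile, had 590, 659 and 586 in caNrf2 skin, against 592, 626 and 571 in control skin. Both groups of Blvra overlapped, and its log2 fold change of 0.04 ± 0.07 had a 95% interval from -0.13 to 0.20 (limma, adjusted p = 0.833). Blvrb exceeded Blvra in its response by 1.99 ± 0.09 (SE, n = 3 each), with within-array differences that did not overlap between the groups (exact two-sided permutation p = 0.1, adjusted 0.133).

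The 250 bases before the annotated start of both reductase genes are shown because both genes code for biliverdin reductases and only 1 was called. They come from RefSeq on the mouse build GRCm38.p6 and read 5′ to 3′ on the gene's strand. Blvrb lies at chr7:27447728-27447977 on the plus strand, the more upstream of 2 annotated starts, and Blvra at chr2:127070407-127070656 on the plus strand. Capitals mark a match to TGACNNNGC, the core of the antioxidant response element, searched on both strands.
Blvrb: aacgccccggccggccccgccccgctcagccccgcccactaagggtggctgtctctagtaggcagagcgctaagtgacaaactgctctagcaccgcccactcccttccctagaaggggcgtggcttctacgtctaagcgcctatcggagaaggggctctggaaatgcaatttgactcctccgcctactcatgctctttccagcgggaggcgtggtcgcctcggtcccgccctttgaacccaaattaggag
Blvra: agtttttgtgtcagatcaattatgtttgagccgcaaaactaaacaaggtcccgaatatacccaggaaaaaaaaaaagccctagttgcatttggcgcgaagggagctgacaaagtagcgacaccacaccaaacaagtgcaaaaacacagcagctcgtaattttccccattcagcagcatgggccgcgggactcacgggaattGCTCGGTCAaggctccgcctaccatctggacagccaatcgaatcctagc
The 1 match stood before Blvra, the gene that was not called. On the printed strand this match began 49 bases before the start, and on the opposite strand it reads TGACCGAGC. Neither Blvrb window held the core, which 10.2% of 32851 such windows in the RefSeq table contained. The printed Blvrb window held 4 matches to GGGCGG, the GC box, on either strand and 18 CpG dinucleotides, against 0 and 12 in the Blvra window. At least 1 GC box was present in 32.7% of all windows, whose median CpG number was 6. Of the 10 genes, 6 had an entry in the promoter table, with 9 windows in all, and the Blvra match was the only TGACNNNGC core among them. These are matches of letters, and more distant sequence was not searched. Known enhancers of Hmox1, which has no entry in the table, lie well upstream of such a window.

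Slc48a1 and Abcb6 were higher too. Slc48a1, which moves haem out of endosomes and lysosomes into the cytosol, had 1288, 1282 and 1367 in caNrf2 skin with its brighter probe set, against 873, 851 and 832 in control skin. Its dimmer probe set had 711, 762 and 754 in caNrf2 skin, against 474, 510 and 434 in control skin. Both probe sets separated the groups by about the same factor, with log2 fold changes of 0.62 ± 0.06 and 0.65 ± 0.08 (limma, adjusted p = 0.000766 and 0.00186). Abcb6, a porphyrin transporter of the ABC family, had 430, 451 and 489 in caNrf2 skin, against 274, 249 and 220 in control skin. Its log2 fold change of 0.89 ± 0.09 (limma, adjusted p = 0.000713) rests on 1 probe set, whose groups were clearly apart.

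Fech, the ferrochelatase that puts iron into protoporphyrin as the closing step of haem synthesis, showed a smaller difference. Its brightest probe set had 850, 872 and 895 in caNrf2 skin, against 757, 756 and 681 in control skin, and was not called (log2 fold change 0.26 ± 0.07; limma, adjusted p = 0.111). Another had 475, 524 and 506 in caNrf2 skin, against 392, 405 and 383 in control skin. That probe set was called, at 0.35 ± 0.07 (limma, adjusted p = 0.0345). A further one of like size missed the threshold at 0.35 ± 0.07 (limma, adjusted p = 0.0502). The dimmest, with means of 44.4 ± 5.77 in caNrf2 and 43.6 ± 4.29 in control skin, gave 0.02 ± 0.10 (limma, adjusted p = 0.932). Dropping an array, whichever of the 6 it was, ended this Fech call (adjusted p between 0.0559 and 0.132), with estimates between 0.32 and 0.39. The probe set at 0.0502 was called in 8 of 14 alternatives, among them the fit without caNrf2 replicate 1 (0.41, adjusted p = 0.0377). Of 12 measured marker genes of red cell precursors 0 were called. The 12 summed to between 735 and 762 in caNrf2 skin and between 688 and 730 in control skin, which did not overlap. Of the 12, 11 had a positive log2 fold change, and 5 were dim, with a mean intensity under 32. The 4 bright probe sets shared between adult globin genes summed to 33415 to 37357 in caNrf2 skin, against 35492 to 42507 in control skin, and overlapped. Alas2, the erythroid form of the entry enzyme of haem synthesis, had 190 in caNrf2 and 186 in control skin on average (log2 fold change 0.04 ± 0.11; limma, adjusted p = 0.876). The part of red cell precursors in the Fech result was not tested.

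**Figure D2:**
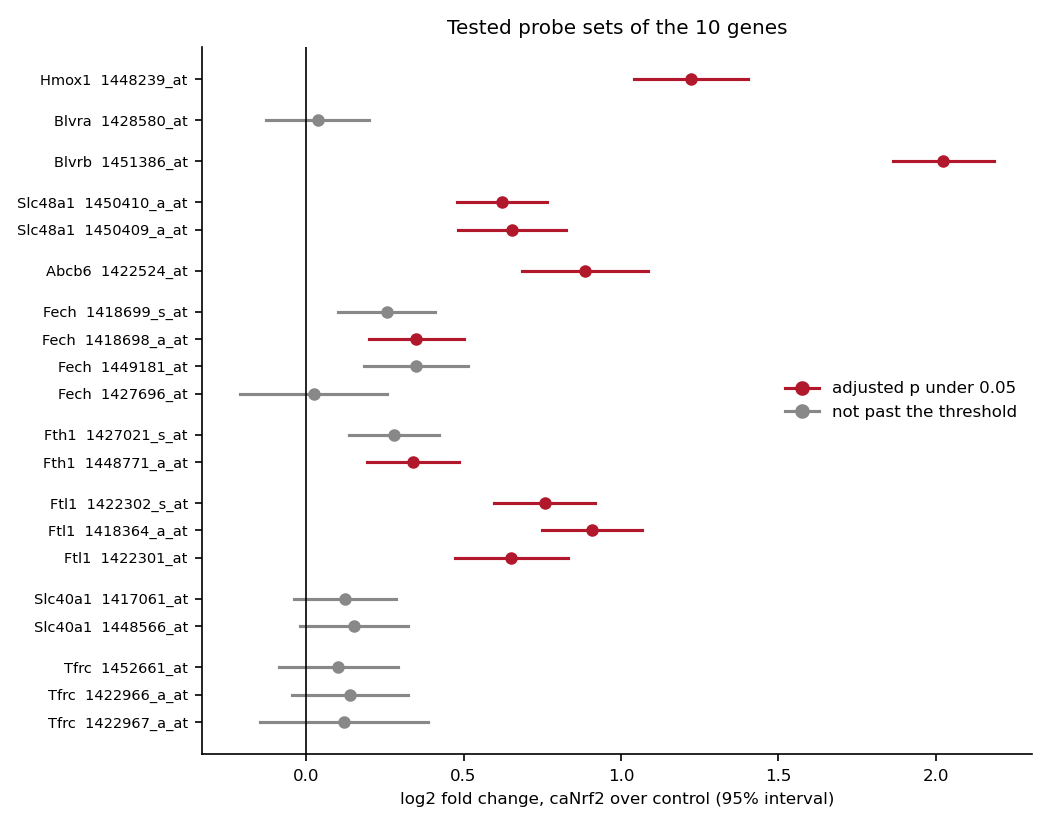
Log2 fold change of caNrf2 over control skin (x axis) with its 95% interval from limma for each of the 20 tested probe sets, grouped by gene and ordered by brightness within a gene. Called probe sets (red) run from 0.34 for Fth1 to 2.03 for Blvrb. Intervals of Blvra, Slc40a1, Tfrc and the dimmest Fech probe set cross 0.

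Of the ferritin chains, the light chain showed the larger rise. All 3 probe sets of Ftl1 are also assigned to Ftl1-ps2, and 1 of them to Mir692 genes as well, so their signal cannot be given to Ftl1 alone. The brightest had 7023, 7645 and 7099 in caNrf2 skin, against 4109, 4598 and 4175 in control skin. A second bright one had 5200, 5705 and 5670 in caNrf2 skin, against 2818, 3108 and 2904 in control skin. Control replicate 2 was the highest control and caNrf2 replicate 2 the highest caNrf2 array in both, and the groups stayed well apart. For both Ftl1 probe sets limma gave a rise, of 0.76 ± 0.07 and 0.91 ± 0.07 on the log2 scale (adjusted p = 0.000432 and 0.000103). The dimmest probe set, at 297 ± 29.0 in caNrf2 and 188 ± 5.60 in control skin, gave 0.65 ± 0.08 (limma, adjusted p = 0.00246).

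Fth1, which codes for the heavy chain, differed less. Its brighter probe set had 10259, 10270 and 10406 in caNrf2 skin, against 8639, 8790 and 8077 in control skin. The groups did not overlap, and the log2 fold change of 0.28 ± 0.06 was not called (limma, adjusted p = 0.0694). Its other probe set had 6344, 6904 and 6632 in caNrf2 skin, against 5173, 5399 and 5132 in control skin, and was called at 0.34 ± 0.07 (limma, adjusted p = 0.0351). Dropping an array, whichever of the 6 it was, ended that Fth1 call (adjusted p between 0.0581 and 0.14), while the estimate stayed between 0.31 and 0.37. The brighter probe set was called with an intensity trend in the variance prior (adjusted p = 0.00243) and with 1 probe set per gene symbol (0.0329). In the 6 fits that left out an array it was called in 0 (adjusted p between 0.09 and 0.187). Between the brightest probe sets of both chains, the response of Fth1 was lower than that of Ftl1 by 0.48 ± 0.06 on the log2 scale (coded as Fth1 minus Ftl1, -0.48). The within-array differences did not overlap between the groups (exact two-sided permutation p = 0.1, adjusted 0.133).

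The windows before both ferritin genes are shown as the pair whose products form 1 shell. Ftl1 lies at chr7:45459887-45460136 on the minus strand, and Fth1 at chr19:9982396-9982645 on the plus strand, the more downstream of 2 annotated starts, both on GRCm38.p6 from RefSeq and 5′ to 3′ on the gene's strand. Neither held TGACNNNGC, so no base is in capitals.
Ftl1: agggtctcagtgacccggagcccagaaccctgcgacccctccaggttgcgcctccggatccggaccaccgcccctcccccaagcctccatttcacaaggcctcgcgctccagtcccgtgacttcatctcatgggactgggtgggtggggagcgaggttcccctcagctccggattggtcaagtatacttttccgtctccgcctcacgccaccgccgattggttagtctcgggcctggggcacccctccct
Fth1: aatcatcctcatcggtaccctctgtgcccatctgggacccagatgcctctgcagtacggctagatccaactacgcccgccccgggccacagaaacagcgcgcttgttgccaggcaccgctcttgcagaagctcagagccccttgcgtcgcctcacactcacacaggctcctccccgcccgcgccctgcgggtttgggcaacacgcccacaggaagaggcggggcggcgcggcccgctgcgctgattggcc
The Ftl1 window held 17 CpG dinucleotides and 1 GC box, and the Fth1 window 21 and 3. Both CpG numbers exceeded the upper quartile of 16 over all windows. The window of the more upstream Fth1 start held 3 CpG and 0 GC boxes, as did that of the more downstream Blvrb start, and for both genes the window with more CpG is printed.

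Neither the exporter nor the importer of iron was called. Slc40a1, which codes for ferroportin, had 2303, 2215 and 2545 in caNrf2 skin with its brighter probe set, against 2107, 2160 and 2210 in control skin. The groups nearly touched without overlapping, and the log2 fold change was 0.12 ± 0.07, with a 95% interval from -0.04 to 0.28 (limma, adjusted p = 0.402). Without caNrf2 replicate 3 it was 0.065. The other Slc40a1 probe set overlapped between the groups, at 0.15 ± 0.08 (limma, adjusted p = 0.334). Macrophages recycle iron and carry much ferroportin. Of 16 macrophage genes 0 were called, with a median log2 fold change of 0.03, and they summed to between 4856 and 5557 in caNrf2 skin and between 5020 and 5318 in control skin.

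Tfrc, the receptor that brings in transferrin-bound iron, had 1494, 1460 and 1787 in caNrf2 skin with its brightest probe set, against 1432, 1497 and 1474 in control skin. The caNrf2 group overlapped the controls except in replicate 3. The log2 fold changes of the 3 tested Tfrc probe sets lay between 0.10 and 0.14 (limma, adjusted p from 0.409 to 0.639), and the brightest had a 95% interval from -0.09 to 0.29. In each of them caNrf2 replicate 3 was the highest array. Without that array the brightest Tfrc probe set gave 0.01. The 3 control probe sets for Tfrc, which target different stretches of the transcript, averaged 191 ± 19.6, 57.0 ± 3.11 and 57.4 ± 3.46 in caNrf2 skin, against 185 ± 6.91, 52.3 ± 2.32 and 58.3 ± 3.82 in control skin (SD, n = 3). Their groups overlapped too, and they were not tested. The response of Fth1 exceeded that of Tfrc by 0.18 ± 0.10, with overlapping within-array differences (exact two-sided permutation p = 0.3, also after adjustment).

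**Figure D3:**
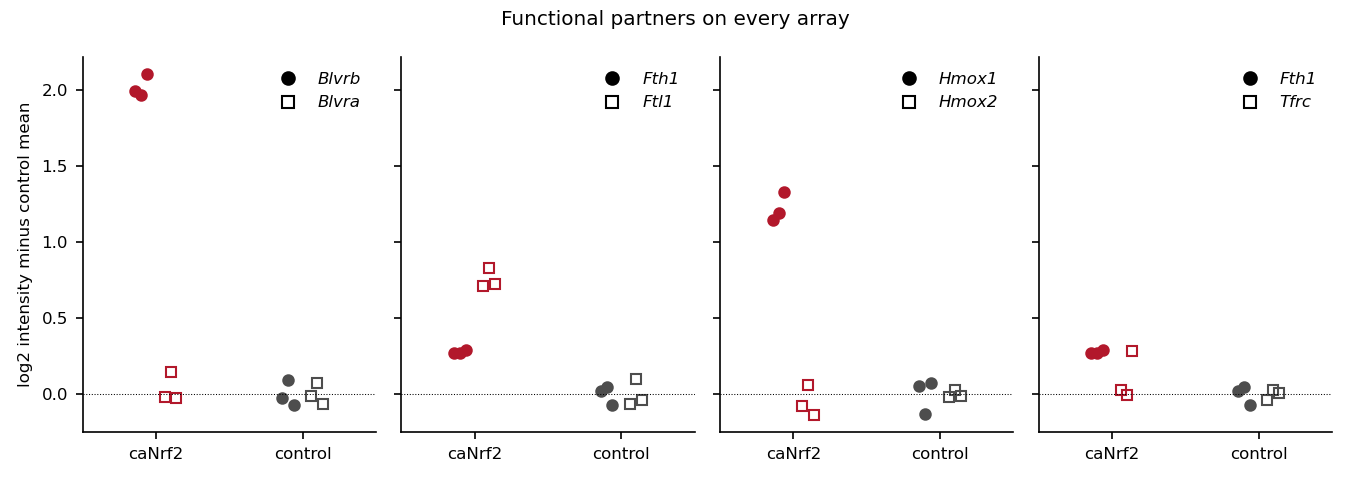
Log2 intensity on every array minus the control mean of the same gene (y axis) for the 4 pairs of functional partners, caNrf2 arrays left and control arrays right, with filled circles for the gene named on top. Blvrb and Hmox1 stand apart from Blvra and Hmox2 in caNrf2 skin, by 1.99 and 1.27 on average, and Fth1 lies below Ftl1 by 0.48.

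Among the 3 caNrf2 arrays, replicate 3 was the highest in 11 of the 20 tested probe sets, replicate 2 in 8 and replicate 1 in 1. Among the controls, replicate 2 was the highest in 11, replicate 3 in 5 and replicate 1 in 4. Leaving out any 1 array left 8 or 9 of the 20 called higher, against 10 with all arrays, and 0 lower. The calls of Hmox1, Blvrb, Slc48a1, Abcb6 and Ftl1 were kept in each of these 6 fits. Over all probe sets, higher calls numbered 470, and 280, 296 and 305 without caNrf2 replicate 3, control replicate 1 and control replicate 3. Lower calls numbered 285, and between 79 and 147 without any 1 array other than control replicate 2.

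Nfe2l2, which codes for Nrf2, had 1136, 1222 and 1242 in caNrf2 skin, against 825, 726 and 774 in control skin (log2 fold change 0.63 ± 0.07; limma, adjusted p = 0.00176). Whether its probe set also reads the transgene was not tested. Bach1, chosen after its values were seen, averaged 1204 ± 81.9 in caNrf2 and 963 ± 49.7 in control skin and was not called (0.32 ± 0.08; limma, adjusted p = 0.0737). It was called with 1 probe set per gene symbol (adjusted p = 0.0406), but in 0 of the 6 fits that left out an array (between 0.0814 and 0.21). Keratinocyte markers were bright, as the tissue label implies, summing to 117011 to 119936 in caNrf2 and 116093 to 117634 in control skin over 12 genes. Of these, 0 were called higher and Krt15 was called lower (-0.30 ± 0.06; limma, adjusted p = 0.0482), a call that ended whichever array was dropped (adjusted p between 0.0823 and 0.165). Fibroblast markers summed to 69837 to 71514 in caNrf2 and 72105 to 74586 in control skin, with 0 of 7 called. Skeletal muscle markers summed to 53052 to 54375 in caNrf2 and 54035 to 56930 in control skin, with 0 of 8 called. Endothelial markers summed to 1965 to 1998 in caNrf2 and 1872 to 1952 in control skin, with 0 of 7 called. The fibroblast and endothelial sums did not overlap between the groups, while the median log2 fold changes were small, at -0.06 and 0.05. Sums of intensities weigh the brightest genes most, and no background was computed for these or the other marker sums. A positive log2 fold change was seen in 0 fibroblast, 0 skeletal muscle and 6 endothelial genes. The 6 melanocyte genes were all lower in estimate, with a median of -0.21, a sum of 9588 to 10499 in caNrf2 and 11115 to 11894 in control skin that did not overlap, and 0 called. Of 6 adipocyte genes only Lep was called, as lower (-0.58 ± 0.07; limma, adjusted p = 0.00231), and the list summed to between 27176 and 28527 in caNrf2 skin and between 27854 and 28344 in control skin. The part of these cell types in the results was not tested. Over a whole array the upper quartile of intensity was lower in caNrf2 skin, at 325 to 328, against 334 to 341 in control skin. The part of that shift in the sums was not tested.

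The other genes of haem and iron handling were read from 6 lists, each gene standing by its brightest unshared probe set. Of 81 listed genes 74 were measured, of which 4 were called higher, 1 lower and 69 neither. Over all 18193 genes, 1.51% were called higher and 0.786% lower. The median log2 fold change of the 74 was -0.00, as it was over all genes, and 36 of them were positive. Every caNrf2 array lay above the controls in 11 of the 74 and below them in 11, against 12.7% and 13.0% of all genes. With the 6 lists pooled, the median and the non-overlap counts lay near those of all genes, though single lists differed from this. The share called higher, 4 of 74, was above that of all genes. The lists were chosen with earlier results known, so these shares are a description.

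Heph, a membrane ferroxidase that works with ferroportin in iron export, had 1298, 1304 and 1408 in caNrf2 skin, against 724, 717 and 795 in control skin. Its groups were far apart, with a log2 fold change of 0.84 ± 0.07 (limma, adjusted p = 0.000185), while Slc40a1 itself was not called. Cybrd1, a ferric reductase of the cell surface, had 228, 222 and 206 in caNrf2 skin, against 293, 299 and 284 in control skin. It was the 1 gene called lower, at -0.42 ± 0.07 (limma, adjusted p = 0.014), and lost that call without caNrf2 replicate 3 (0.0703) or control replicate 1 (0.0624). Its other probe set gave -0.11, and the mean of both gave -0.26, not called (adjusted p = 0.0773). Of 21 measured genes of iron uptake, reduction and transport, 19 were not called. Transferrin is not among them, since its 1 probe set is shared with another gene. Slc39a14, an importer of iron and zinc, gave -0.28 ± 0.07 and the ferritin receptor Scara5 -0.28 ± 0.07 (limma, adjusted p = 0.0875 and 0.0912). However, another Scara5 probe set gave 0.26, and the 4 Slc39a14 probe sets ran from -0.28 to 0.0016. In 7 of the 21, all caNrf2 arrays lay below the controls, and in 3 above, against 13.0% and 12.7% of all genes. The median of this list was -0.05.

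In haem transport and scavenging, 2 of 12 genes were called higher and 0 lower, with a median of -0.03. Pgrmc1, a haem-binding membrane protein known to associate with ferrochelatase, had 4318, 3974 and 4728 in caNrf2 skin, against 2426, 2316 and 2497 in control skin. That is a log2 fold change of 0.84 ± 0.08 (limma, adjusted p = 0.000359), about the size of the Heph and Abcb6 differences. Hpx, the haem scavenger of plasma, was dim in both groups, at 59.6 ± 5.16 in caNrf2 and 40.4 ± 2.79 in control skin (0.56 ± 0.08; limma, adjusted p = 0.00898). The lower quartile of intensity over a whole array was higher in caNrf2 skin, at 24.9 to 25.4, against 23.8 to 24.3 in control skin. The upper quartile, by contrast, was lower in caNrf2 skin. The part of these shifts in differences of dim or bright genes was not tested. Flvcr2, of the Flvcr transporter family, gave 0.34 ± 0.07 (limma, adjusted p = 0.0531), and Slc46a1, a folate carrier that also takes up haem, -0.11 ± 0.07 (0.434). The Flvcr2 groups did not overlap. Flvcr2 was called in 8 of 16 alternatives, but in only 1 of the 6 fits that left out an array (adjusted p between 0.0476 and 0.185).

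In haem synthesis, 1 of 10 genes was called higher and 0 lower, with a median of 0.01. Alad, which joins aminolevulinate molecules into the pyrrole building block, had 1535, 2119 and 2222 in caNrf2 skin, against 1265, 1344 and 1183 in control skin. Replicate 1 of the caNrf2 mice stood nearer to the controls than the other two. The Alad log2 fold change was 0.62 ± 0.13 (limma, adjusted p = 0.0477), and dropping an array ended the Alad call in 5 of 6 cases, with adjusted p reaching 0.149; it held without caNrf2 replicate 1. Alas1, the entry enzyme of the pathway outside red cells, had 933, 994 and 942 in caNrf2 skin, against 782, 798 and 720 in control skin. The groups did not overlap, and the log2 fold change of 0.32 ± 0.07 narrowly missed the threshold (limma, adjusted p = 0.0534). It was called with 1 probe set per gene symbol (0.0265), but in 0 of the 6 fits that left out an array (adjusted p between 0.0712 and 0.149). Cpox, a later enzyme, gave -0.10 ± 0.07, and Slc25a38, a mitochondrial glycine carrier, 0.06 ± 0.08 (limma, adjusted p = 0.498 and 0.761).

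None of the 31 genes of the other 3 lists was called. In ferritin delivery and turnover, all 4 genes, Ftmt, the mitochondrial ferritin, the ferritin degradation receptor Ncoa4 and the iron chaperones Pcbp1 and Pcbp2, had adjusted p from 0.206 to 0.907, with a median of 0.05. Among 10 genes of iron sensing and hepcidin control, the smallest adjusted p was 0.169, for Hamp, the hormone hepcidin, at a dim 28.6 in caNrf2 and 23.6 in control skin. Ireb2, one of the iron-responsive mRNA-binding proteins, gave -0.15 ± 0.07, Neo1 -0.13 ± 0.06 and the transferrin receptor partner Hfe 0.15 ± 0.08 (limma, adjusted p = 0.308, 0.308 and 0.368). Across the 5 probe sets of Neo1 the log2 fold change ran between -0.27 and 0.35. Among 17 genes of iron-sulfur cluster assembly, log2 fold changes lay between -0.14 and 0.10. The 4 with the smallest p were Nfu1, Mms19, Hscb and Nubp1, at adjusted p from 0.365 to 0.521.

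**Figure D4:**
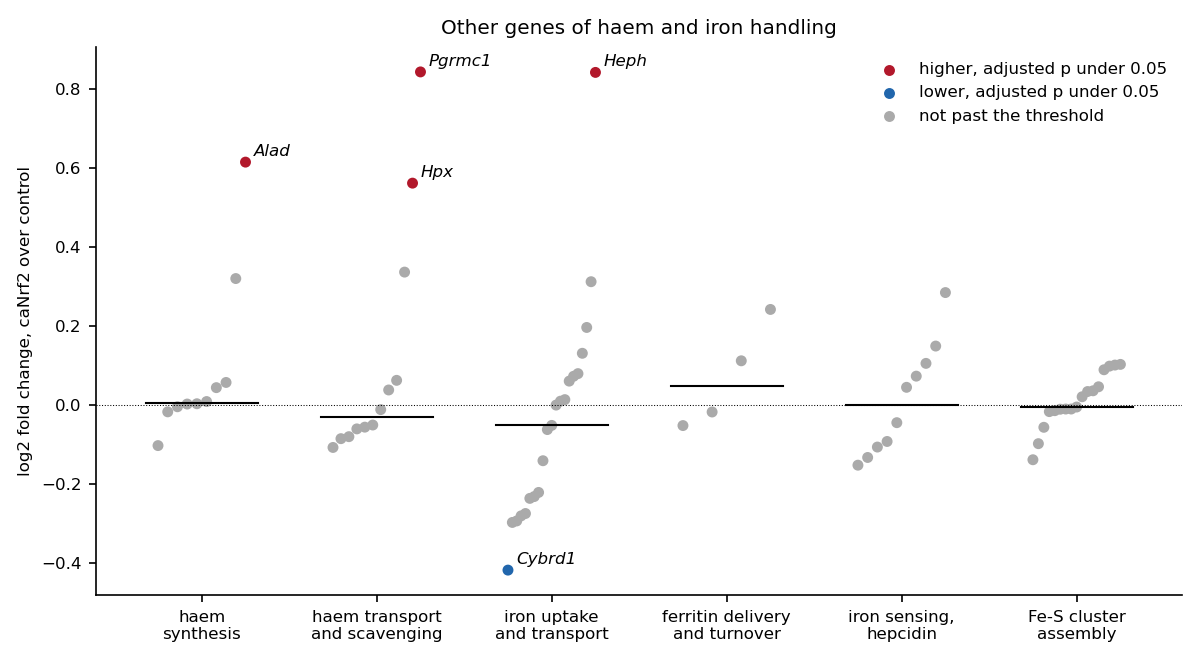
Log2 fold change of caNrf2 over control skin (y axis) for 74 genes in 6 lists of haem and iron handling (x axis), with called genes coloured and named and a black line at each list's median. Alad, Pgrmc1, Hpx and Heph are higher, Cybrd1 is lower, and the list medians lie between -0.05 and 0.05.

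The genes whose pattern over the 6 arrays was most like that of Hmox1 and Blvrb were found among 18184 genes that are not in the set of 10. Each gene was centred on its control mean, and likeness was the root mean square difference of log2 values. Nearest to Hmox1 were Ptgs2, a prostaglandin synthase, Txnrd1, a thioredoxin reductase, Slc6a9, a glycine transporter, and Sqor, which oxidises sulfide, at 0.09 to 0.12. Their log2 fold changes were 1.18 ± 0.10, 1.22 ± 0.07, 1.16 ± 0.06 and 1.26 ± 0.07, and Ptgs2 was dim in control skin, at 84.7 ± 4.23 in caNrf2 and 37.7 ± 5.52 in control skin. Over the alternatives the Ptgs2 log2 fold change went as low as 0.91. Nearest to Blvrb were Il1f9, a cytokine of the interleukin-1 family, Gstm6, a glutathione transferase, Nyx, a leucine-rich repeat protein known from the retina, and Gss, glutathione synthetase, at 0.10 to 0.13, with log2 fold changes of 2.14 ± 0.08, 2.02 ± 0.10, 1.89 ± 0.09 and 1.89 ± 0.10. Gstm6 and Nyx were dim in control skin too, at 162 and 130 in caNrf2 and 40.4 and 35.2 in control skin on average, and log2(value + 16) lowered their log2 fold changes to 1.67 and 1.52. This is a description of 6 arrays in 2 groups and carries no test.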

How the data were processed

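Whole skin RNA of 3 caNrf2 and 3 control mice was measured on Affymetrix arrays from 2 ug of total RNA, per the labels' protocols. The authors deposited 1 intensity per probe set and array, not logged, which RMA produced per the submitters' processing notes (version not given in the sources used here). RMA makes arrays alike in distribution, which can hide a change shared by most transcripts. Array medians were 80.3 to 81.6, and the quartiles still differed slightly between the groups. The number of arrays limits the precision.

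Groups and replicate numbers come from the sample titles, which call all 6 samples strong, a word the labels do not explain. The treatment cell names caNrf2 on all samples and was not used. Gene symbols come from the array annotation, brought up to date by Entrez number against RefSeq (GRCm38.p6), where 34741 of 34945 single-symbol probe sets matched. Log2 intensities were fitted with limma 3.58.1 in R 4.3.3 (lmFit, eBayes, group as the only term) over 45037 probe sets, leaving out 64 control probe sets. P-values are two-sided. The fit was tested on simulated data. Partner pairs were compared by exact permutation of within-array log2 differences. Alternatives were each array left out, the replicate number as a block, other variance priors, array weights, log2(value + 16), further normalization, a minimum mean intensity of 32, and other gene summaries.

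The 10 genes and the lists were chosen with earlier results of these data known. Named genes are the 10, Nfe2l2, the partners, all called list genes, otherwise up to 4 per list with the smallest p, and the 4 genes most like Hmox1 and Blvrb. Bach1 and the shared globin probe sets were added after the data were seen.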

Additional observations from a re-analysis of the deposited data

How the results depend on the processing

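For 57 named probe sets, 868 values under the alternatives kept direction and side of the threshold in 784, lost a call in 32, gained one in 44 and changed sign in 8, 0 of them in a called probe set. Of the 20 probe sets of the 10 genes, 7 to 13 were called higher (7 with 1 probe set per gene, by construction) and 0 lower. The replicate number as a block left 8 of them called, 342 higher and 177 lower calls over all probe sets and 0 haem synthesis genes. Same-numbered deviations correlated at 0.04, 0.16 and 0.08, and differently numbered ones at -0.14 to 0.07. The main fit did not take the numbers as pairs, and whether they mark pairs was not tested. Lower calls over all probe sets were 577 with an intensity trend, 610 with robust variances too and 428 with log2(value + 16). Under these 3, and with 1 probe set or the mean of probe sets per gene, lower calls among the listed genes, all in iron uptake, were 5, 5, 4, 4 and 2 (the 2 without Cybrd1), and 2 haem synthesis genes were higher, as also after further quantile normalization or at a mean of at least 32. Leaving out 1 array gave 280 to 354 higher and 79 to 270 lower calls over all, and 0 to 1 lower genes in iron uptake and higher genes in haem synthesis. Ranges over left-out arrays that crossed 0 were -0.013 to 0.22 for the dimmest Tfrc probe set, -0.080 to 0.094 for the dimmest Fech (-0.0073 after quantile normalization), -0.019 to 0.072 for Blvra, -0.0091 to 0.14 for Slc25a38, -0.098 to 0.0016 for Pcbp2 and -0.030 to 0.0031 for Pcbp1. The causes were not tested.

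With 3 mice a group the exact tests cannot fall under 0.1, and littermates share their background. Protein, haem and iron were not analysed here.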
